A study of Homo sapiens with 2 samples.

Results

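The forkhead transcription factor genes were taken as the RefSeq protein-coding genes on chromosomes 1 to 22 whose symbol is FOX, a letter from A to S and digits with an optional letter. There were 42 of them among 19126 protein-coding genes on these chromosomes, in 18 letter subfamilies on 18 chromosomes, and the genes were between 1299 bp and 629271 bp long. A further gene that fits this rule was left out, and genes of the family outside the rule are not analysed either. For each gene the span plus 50 kb on either side was examined, and this stretch is called its window.

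DNase-seq was done on Saos-2 and U2OS, a pair of established human cell lines that were both derived from osteosarcoma, a bone tumour. Each line was untreated as far as the labels say and was represented by 1 library. Nuclei were digested briefly with a small amount of DNase I, which cuts DNA that nucleosomes do not cover, and the authors listed the stretches with an excess of cuts, called hotspots. The list of Saos-2 held 51556 hotspots and that of U2OS 63388, and the number of reads behind each list is unknown, so that fewer hotspots in a line and a shallower library cannot be told apart.

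Forkhead factors bind DNA through a winged-helix domain, which most members direct to variants of the letters TGTTTAC. FOXA factors can bind their sites in closed chromatin and are known for the identity of liver, lung and gut epithelium. FOXC, FOXF, FOXD1, FOXL1 and FOXQ1 are known from mesenchyme, kidney stroma, vessels and skeleton, FOXO factors restrain growth when insulin signalling is low, and FOXP factors are repressors that act in lymphocytes, lung, heart and brain. FOXK and FOXN3 factors are made in most tissues.

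The merged windows of the 42 genes covered 6573470 bases. They held 164 hotspots in Saos-2, or 2.495 per 100 kb against 2.227 per 100 kb over the windows of all protein-coding genes. In U2OS they held 192 hotspots, or 2.921 per 100 kb against 2.667. The windows of the forkhead genes were thus about as rich in hotspots as those of other genes in either line. Hotspots covered 43056 bases of them in Saos-2 and 52071 in U2OS, a log2 ratio of 0.27 against 0.30 over all windows. Overlap of at least 1 bp with a hotspot of the other line was found for 87 Saos-2 hotspots, 53.05% of them with a 95% Wilson interval of 45.43 to 60.53. The interval covers counting error only, and the share over all gene windows was 60.48%. In U2OS 87 hotspots were overlapped, 45.31% with an interval of 38.43 to 52.38, against 49.99% over all gene windows. Of the hotspots in the forkhead windows, 69 in Saos-2 and 63 in U2OS lay inside a forkhead gene, and 31 and 38 of these lay inside the long genes FOXP1, FOXP2 and FOXN3.

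Gene ends were marked by hotspots in both lines at a smaller share of the forkhead genes than of all protein-coding genes. A gene-end hotspot, which lies within 1 kb of either end of the gene, was present in both lines at 12 of the 42 genes (28.6%, against 43.5% of all protein-coding genes). These 12 were FOXA1, FOXA3, FOXC1, FOXD1, FOXD2, FOXJ1, FOXK2, FOXN2, FOXO3, FOXO3B, FOXO6 and FOXP4. At FOXO3 the lines had them at opposite ends, Saos-2 at the 3′ end and U2OS at the outer start. Only Saos-2 had one at FOXC2 and FOXL2 (4.76%, background 5.07%), and only U2OS had one at FOXA2, FOXB1, FOXF1, FOXI2, FOXJ3, FOXL1 and FOXP1 (16.7%, background 10.6%). Neither line had one at the other 21 genes (50%, background 40.9%), although 20 of these 21 had a hotspot elsewhere in the window. By line, 14 forkhead genes had a gene-end hotspot in Saos-2, which is 33.33% with a Wilson interval of 21.01 to 48.45, against 48.6% of all genes. In U2OS 19 genes had one, which is 45.24% with an interval of 31.22 to 60.05, against 54.1%, which lies inside the interval. The background share itself depends on gene length, and 28 forkhead genes were under 20 kb long. Among these 28, the ends of 7 held a hotspot in both lines (25%, against 36.5% of all genes under 20 kb). In this class 14 had one in neither (50%, against 49.4%), which is close to the background. Among the 14 forkhead genes of at least 20 kb, 5 had one in both lines (35.7%, against 49.1% of all such genes). Of these longer genes 7 had one in neither (50%, against 34%).

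Most windows held at least 1 hotspot. This was so for 36 genes in Saos-2 (85.71%, background 90.1%) and for 41 in U2OS (97.62%, background 95%). FOXD4 was alone in having none in either line (background 3.56%), and 5 genes, with FOXB1, FOXF1, FOXI3 and FOXL3 among them, had hotspots in U2OS only. FOXD4 has near-identical copies elsewhere in the genome, and how reads that match several places were handled is not given in the sources used here. Their part in its empty window was not tested.

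**Figure D1:**
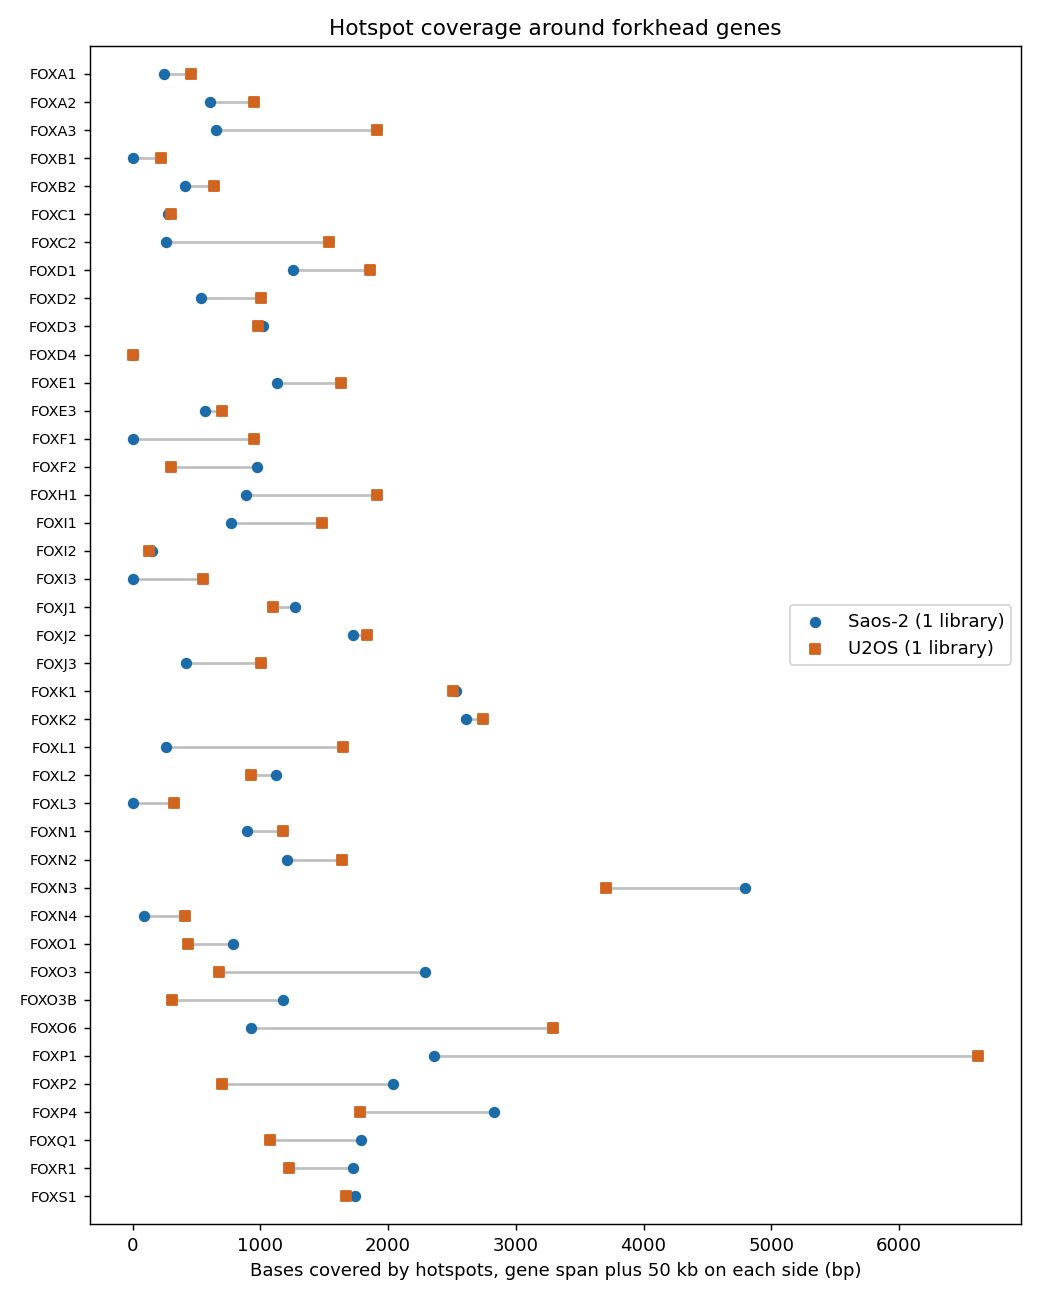
Bases covered by hotspots in the window (gene span plus 50 kb) of 41 of the 42 forkhead genes, in bp, with 1 point per gene for Saos-2 and 1 for U2OS joined by a line. FOXP1 has the highest U2OS value at 6620 bp and FOXN3 the highest Saos-2 value at 4795 bp, and FOXD4 is at 0 in both lines. Values are not scaled to window length, and FOXP1 and FOXN3 are long genes.

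The number of covered bases was compared between the lines as log2 of U2OS plus 100 bp over Saos-2 plus 100 bp, and a gene was called where this differed by at least 2-fold. With 1 library per line this is a rule of size, not a test. The rule called 13 genes higher in U2OS (31%, against 22.2% of all protein-coding genes) and 4 higher in Saos-2 (9.52%, against 6.03%). More bases were covered in U2OS at 26 genes (background 62.9%) and in Saos-2 at 15 (background 33.5%), and the median log2 ratio was 0.39 against 0.26 over all genes. Among the 13 genes were FOXA3, FOXB1, FOXC2, FOXF1, FOXH1, FOXI3, FOXJ3, FOXL1, FOXL3, FOXN4, FOXO6 and FOXP1, and the 4 were FOXF2, FOXO3, FOXO3B and FOXP2. FOXF1, FOXC2 and FOXL1 lie side by side and share hotspots, so their calls are not separate observations. The call of FOXA3 was kept in 4 of 8 alternatives, those of FOXF2, FOXJ3, FOXL3 and FOXN4 in 5, and those of FOXB1, FOXC2, FOXO3 and FOXO3B in 7. In windows of the gene plus 10 kb the calls of FOXL3 (no hotspot left in either line), FOXN4 (0.37) and FOXO3B (−0.39) were lost, that of FOXO3 was lost in windows of 100 kb (−0.94), and that of FOXB1 with a pseudocount of 500 bp (0.53). The plot of covered bases per gene shows that these calls come at all levels, from FOXB1 with 0 and 220 bases to FOXP1 with 2361 and 6620.

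RefSeq start windows, from 250 bases before to 50 after a start, were matched by gene identifier for 32 of the 42 genes, at 43 listed starts (assembly GRCh38.p14, whose chromosomes are those of hg38). FOXA2, FOXC2, FOXE3, FOXF1, FOXH1, FOXJ1, FOXL1, FOXN2 and FOXS1 were not among them. Shown are 5 of the 7 starts with a hotspot in both lines, those of FOXC1, FOXP4, FOXO6, FOXO3B and FOXD1, and the outer and inner starts of FOXO3, each of which held one in only 1 line. They were picked with their values known, and FOXD2 and FOXK2 are the members left out. Each is the 250 bases before the start, 5′ to 3′ on the strand of the gene. Capitals mark matches, on either strand, to the GC box GGGCGG, to CCAAT, to the E-box CACGTG or to the AP-1 letters TGANTCA, where N is any base.
FOXC1: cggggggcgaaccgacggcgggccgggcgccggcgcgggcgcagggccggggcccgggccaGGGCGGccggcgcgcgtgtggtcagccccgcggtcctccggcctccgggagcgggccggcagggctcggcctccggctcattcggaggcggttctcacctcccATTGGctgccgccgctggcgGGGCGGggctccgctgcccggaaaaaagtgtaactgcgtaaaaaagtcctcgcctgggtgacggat
FOXP4: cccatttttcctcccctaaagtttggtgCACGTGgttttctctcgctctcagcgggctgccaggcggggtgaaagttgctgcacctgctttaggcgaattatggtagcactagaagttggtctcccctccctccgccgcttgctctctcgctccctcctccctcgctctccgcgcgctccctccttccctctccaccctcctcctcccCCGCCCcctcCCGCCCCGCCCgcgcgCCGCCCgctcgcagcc
FOXO6: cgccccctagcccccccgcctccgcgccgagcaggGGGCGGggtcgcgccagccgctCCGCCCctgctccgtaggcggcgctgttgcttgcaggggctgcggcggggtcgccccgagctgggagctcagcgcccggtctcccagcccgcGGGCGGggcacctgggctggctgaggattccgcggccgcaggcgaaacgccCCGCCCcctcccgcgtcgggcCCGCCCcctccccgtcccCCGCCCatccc
FOXO3B: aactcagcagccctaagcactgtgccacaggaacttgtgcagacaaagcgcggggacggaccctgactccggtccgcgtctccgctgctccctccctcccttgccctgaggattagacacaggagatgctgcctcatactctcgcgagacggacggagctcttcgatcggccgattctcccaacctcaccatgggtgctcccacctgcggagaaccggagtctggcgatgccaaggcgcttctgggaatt
FOXD1: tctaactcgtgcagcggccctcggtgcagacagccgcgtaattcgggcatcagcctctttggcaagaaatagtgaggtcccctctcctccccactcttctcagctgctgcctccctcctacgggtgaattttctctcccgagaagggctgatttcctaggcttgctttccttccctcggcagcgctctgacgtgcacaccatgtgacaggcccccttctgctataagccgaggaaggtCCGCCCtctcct
FOXO3 outer start: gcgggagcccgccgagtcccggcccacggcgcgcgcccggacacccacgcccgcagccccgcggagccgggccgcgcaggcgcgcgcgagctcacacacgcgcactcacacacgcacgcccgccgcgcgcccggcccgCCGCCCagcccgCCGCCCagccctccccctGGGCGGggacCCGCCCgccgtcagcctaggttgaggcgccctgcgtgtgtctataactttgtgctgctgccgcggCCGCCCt
FOXO3 inner start: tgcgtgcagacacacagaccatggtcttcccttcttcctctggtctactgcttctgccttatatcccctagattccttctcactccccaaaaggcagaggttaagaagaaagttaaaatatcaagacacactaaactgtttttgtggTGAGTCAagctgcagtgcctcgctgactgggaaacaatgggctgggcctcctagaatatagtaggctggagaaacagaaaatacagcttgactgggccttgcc

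Their positions are chr6:1609665-1609914 for FOXC1 on the plus strand, chr6:41546131-41546380 for FOXP4 on the plus strand and chr1:41361184-41361433 for FOXO6 on the plus strand. FOXO3B lies at chr17:18682315-18682564 on the minus strand and FOXD1 at chr5:73448778-73449027 on the minus strand. The outer start of FOXO3 lies at chr6:108559575-108559824 and the inner start at chr6:108588523-108588772, both on the plus strand. At FOXC1 the proximal GC box, the ATTGG match and the start fell within the hotspots of both lines, whereas the other GC box lay outside them, farther from the start. At FOXP4 the Saos-2 hotspot took in all 4 GC boxes and the E-box, and the U2OS hotspot took in the E-box and 1 GC box. At FOXO6 the relation was the opposite, with all 6 GC boxes inside the U2OS hotspot, and 1 inside that of Saos-2, which ended within the next. FOXO3B had none of the searched letters in the 250 bases before its start.

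A set of 7 letter patterns was searched on both strands, and overlapping matches were all counted. These were TGTTTAC for forkhead factors, TGANTCA for AP-1, GGGCGG for the GC box and CCAAT for the CCAAT box. The rest were TATAAA for the TATA box, CACGTG for the E-box and TGACGTCA for the cyclic AMP response element. A match describes the sequence and shows no binding. GGGCGG was found in 74.4% of the 43 forkhead start windows against 56.6% of all 21156 start windows of protein-coding genes, and TATAAA in 2.33% against 9.51%. CCAAT was found in 23.3% against 34.4%. The forkhead letters TGTTTAC themselves were found in 1 window, of an internal start of FOXP1 (2.33% against 2.86%). TGANTCA was found in 6.98% against 6.08%, CACGTG in 6.98% against 8.25%, and TGACGTCA in 2.33% against 2.31%. The forkhead start windows were GC-rich, with a median GC content of 69.33% against 62.67% over all starts and a median ratio of observed to expected CpG of 0.84 against 0.74.

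Most of these GC-rich starts had no hotspot. Hotspots overlapped 9 of the 43 start windows in Saos-2 (20.9%, against 40.4% of all starts) and 11 in U2OS (25.6%, against 44.3%). They were in both lines at 7 starts, in Saos-2 only at 2 and in U2OS only at 4. Counted by gene, 9 of 32 had a hotspot at a listed start in Saos-2 and 10 of 32 in U2OS, against backgrounds of 47.9% and 52.2%. Among the 31 forkhead starts with at least 60% GC, 7 had a hotspot in Saos-2 (22.58%, Wilson interval 11.4 to 39.81) and 10 in U2OS (32.26%, interval 18.57 to 49.86). Of the 12386 starts of all genes in the same GC class, 50.27% and 55.8% had one. Some starts of the same gene lie close together and share a hotspot, so these intervals are narrower than the data warrant. FOXK1 with 84.33% GC, FOXJ2 with 80.33%, FOXN3 with 74.33% and FOXO1 with 68% are made in many tissues. None of these 4 examples had a hotspot at its start in either line. For FOXK1 and FOXJ2 this is the usual state. Of all starts with at least 80% GC, only 20.6% had a hotspot in Saos-2 and 25.9% in U2OS. Other GC-rich members went the other way. FOXK2 with 79% GC had a start hotspot in both lines (4.30 and 6.19), as had FOXP4 with 67.67% (10.7 and 3.90).

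**Figure D2:**
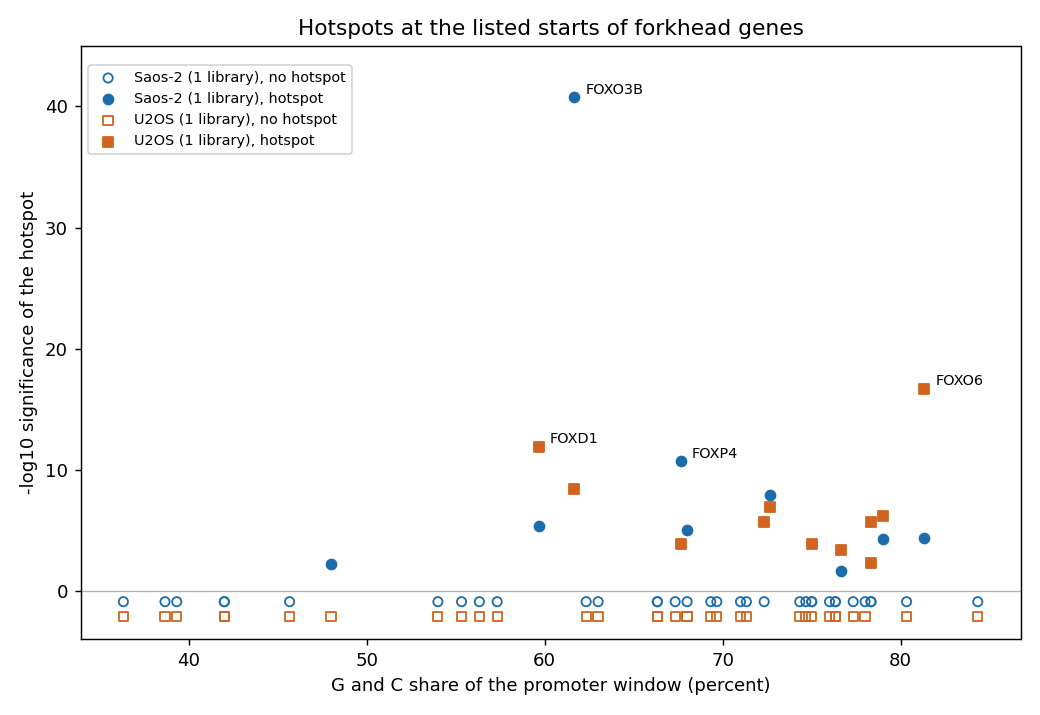
GC content in percent (x axis) of the start windows of the forkhead genes against the highest −log10 value of a hotspot there (y axis), with Saos-2 and U2OS in separate colours and open markers below 0 for starts with no hotspot. FOXO3B stands highest at 40.8 in Saos-2, FOXO6 reaches 16.7 in U2OS, and most starts above 60% GC have open markers in both lines.

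Each hotspot carries a significance from the authors, given as −log10 of a p or q value. It serves here to rank hotspots within a list and is given for the lines side by side without being compared. By this measure the strongest hotspots near forkhead genes in Saos-2 were at the start of FOXO3B (40.8), beyond the 3′ end of FOXK1 (26.7) and inside FOXP2 (25.2). In U2OS they were inside FOXK1 (45.7), 44.3 kb from FOXB2 (44.8) and 24 kb from FOXE1 (36.3).

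Insulin and AKT signalling keep most of the factors that FOXO genes encode out of the nucleus. FOXO3 (gene 2309, chr6:108559825-108684774) had 12 hotspots over 2293 bases in Saos-2 and 4 over 678 bases in U2OS, a log2 ratio of −1.62. Of all these hotspots a single pair overlapped between the lines, 1.3 kb before the outer start in Saos-2, and its −log10 value was 2.09 there and 5.41 in U2OS. U2OS had a pair of hotspots at the outer start, at chr6:108559540-108559636 and chr6:108559693-108559787, with values of 1.84 and 2.29. They take in 4 of the 5 GC boxes printed above for this start, and Saos-2 had none there. Saos-2 had a hotspot of value 2.20 at chr6:108588637-108588755, at the inner start, which U2OS lacked. It holds the letters TGAGTCA at chr6:108588670-108588676 before that start, in a window of 48% GC. A further 3.9 kb into the gene lay the strongest Saos-2 hotspot of any forkhead gene without overlap in U2OS, at chr6:108592374-108592966 with a value of 16.2. The other 11 FOXO3 hotspots of Saos-2 were weak, with values between 1.41 and 3.38. Among them was its only gene-end hotspot, of value 2.28, just beyond the 3′ end at chr6:108684931-108685071.

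FOXO3B (gene 2310, chr17:18667629-18682314), a copy of FOXO3 sequence, had 5 hotspots over 1181 bases in Saos-2 and 1 over 310 bases in U2OS, a log2 ratio of −1.64. Its start hotspot was shared, with values of 40.8 and 8.43, and the other 4 of Saos-2 lay outside the gene. The RefSeq span of ZNF286B, a transcribed pseudogene, shares its end with FOXO3B at position 18682314, so this start hotspot lies at an end of both. FOXO3B resembles FOXO3 in sequence, and the part of reads that match both was not tested.

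FOXO6 (gene 100132074, chr1:41361434-41383590), known from brain and liver, ran the other way, with 4 hotspots over 928 bases in Saos-2 and 10 over 3289 in U2OS, a log2 ratio of 1.72. At the FOXO6 start Saos-2 had a hotspot of 246 bp (−log10 4.40), and U2OS had one of 556 bp (16.7). A shared site 71.6 kb from the start had values of 4.64 and 28.4, and a site at chr1:41418882-41419238 was listed in U2OS only, at 19.4. At the 3′ end Saos-2 alone had a pair of hotspots, of values 1.72 and 7.57. FOXO1 (gene 2308, chr13:40555667-40666641), which controls glucose output and cell survival, was sparsely covered in either line, with 787 bases in 4 hotspots in Saos-2 and 437 bases in 2 in U2OS. Its strongest Saos-2 hotspot, of value 9.49, lay inside the gene 104 kb from the start and had no U2OS overlap, and neither line had one within 1 kb of its ends.

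FOXP1 (gene 27086, chr3:70954708-71583978), a repressor needed for B-cell and heart development, had the most covered bases of any forkhead gene in U2OS and the fifth most in Saos-2. Saos-2 had 11 hotspots over 2361 bases and U2OS 27 over 6620, a log2 ratio of 1.45, and 7 of each were overlapped. All 11 of Saos-2 and 26 of the 27 of U2OS lay inside the gene. At the outermost of its 6 listed starts U2OS had a hotspot of value 3.84 and Saos-2 had none, and no hotspot was listed at the other 5 starts in either line. The strongest U2OS hotspots, with values of 15.4 and 13.2, overlapped Saos-2 hotspots of values 5.44 and 1.52. Conversely the strongest Saos-2 hotspot of FOXP1, of value 11.2, overlapped a U2OS hotspot of value 2.37.

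FOXP2 (gene 93986, chr7:114086327-114693765), known for its role in speech and in motor circuits, was called for Saos-2. It had 8 hotspots over 2039 bases in Saos-2 and 4 over 700 in U2OS, a log2 ratio of −1.42. Neither line had a hotspot at its listed starts or its ends. Its main site, at chr7:114392609-114393149, lies inside the gene span, 21.9 kb before the nearest listed start. It was a hotspot of 541 bp (−log10 25.2) in Saos-2, whereas U2OS had 217 bp (3.59) there. Another Saos-2 site before the gene, of value 14.1, had no overlap in U2OS. FOXP4 (gene 116113, chr6:41546381-41602384), the family member made in lung and gut, was open at its start in both lines, with values of 10.7 in Saos-2 and 3.90 in U2OS. Its window had 2831 covered bases in Saos-2 and 1778 in U2OS, a log2 ratio of −0.64 that the rule did not call, and an internal site 35.3 kb from the start had values of 17.5 and 8.45.

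**Figure D3:**
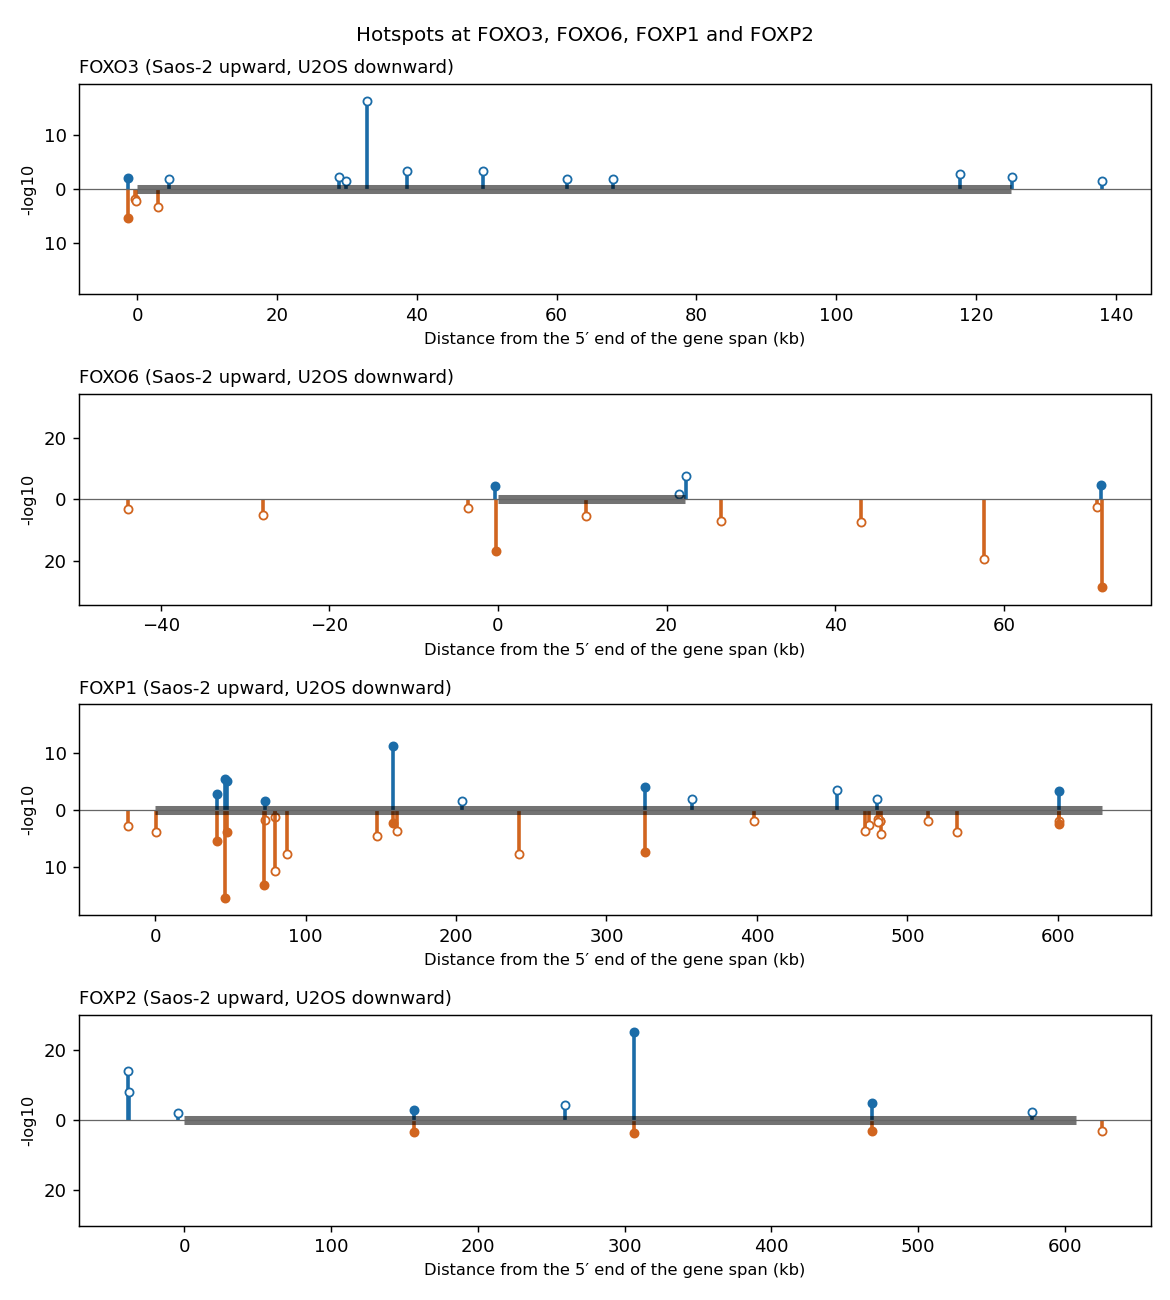
Hotspots across FOXO3, FOXO6, FOXP1 and FOXP2 as stems at their distance from the gene (x axis), with −log10 upward for Saos-2 and downward for U2OS (y axis), filled where the other line overlaps and open where it does not, and the gene as a grey bar. FOXO3 and FOXP2 have more stems in Saos-2 (12 against 4 and 8 against 4), and FOXO6 and FOXP1 more in U2OS (10 against 4 and 27 against 11).

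FOXK2 and FOXK1 were well covered and had close values in the lines. FOXK2 (gene 3607), a repressor of autophagy genes, had 2607 covered bases in Saos-2 and 2741 in U2OS, with a start hotspot in both (4.30 and 6.19). FOXK1 (gene 221937) had 2528 and 2507 covered bases, in 5 and 7 hotspots. It lacked a hotspot at its ends in either line, but an internal site had values of 19.98 in Saos-2 and 45.7 in U2OS. The strongest Saos-2 hotspot of its window, of value 26.7, lay at an end of the neighbouring gene AP5Z1. FOXN3 (gene 1112), a checkpoint repressor, had 4795 covered bases in 19 hotspots in Saos-2 and 3708 in 11 in U2OS. Of these, 6 were overlapped in each line, and among the overlapped sites were those of values 18.7 and 20.2 beyond its 3′ end and 11.9 and 12.9 at a site 12 kb before its start. The 13 Saos-2 hotspots without overlap reached a value of 12.2. FOXN2 had a strong gene-end hotspot in both lines, of values 18.0 and 23.4. FOXJ2 (gene 55810) had none at its ends, but all 5 of its Saos-2 hotspots were overlapped in U2OS, and among them was a pair of sites 5.99 kb and 5.54 kb before its start, of values 5.66 and 4.01 in Saos-2 and 14.3 and 7.002 in U2OS. FOXJ1, the factor of ciliated cells, had a hotspot at its end in both lines (8.77 and 8.53), which RNF157 shares, and a site of value 16.0 outside the gene in Saos-2 only. FOXN1, the thymus factor, had 893 and 1178 covered bases and none at its ends.

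FOXJ3 (gene 22887, chr1:42176548-42335880), known from muscle and sperm development, shared no hotspot between the lines. Saos-2 had 3 weak hotspots inside the gene, over 420 bases and with values of at most 2.65. U2OS had 4 over 1005 bases, of which 1 was at the start with a value of 5.72. The strongest U2OS hotspot of any forkhead window without overlap, of value 24.7, lay beyond the 3′ end at chr1:42165770-42166172. The log2 ratio of 1.09 turned to −0.34 where the window was the gene plus 10 kb, which leaves that hotspot out. FOXN4, a factor of retinal progenitors, was called for U2OS with 89 bases in Saos-2 and 414 in U2OS, in 1 and 2 hotspots of which none overlapped.

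FOXF1, FOXC2 and FOXL1 lie together on chromosome 16 and take part in lung, lymph vessel and gut mesenchyme. Across this locus, chr16:86460527-86633478, Saos-2 had 1 hotspot of 259 bp and U2OS had 10 over 2151 bases, and none overlapped between the lines. The Saos-2 hotspot, of value 5.40 at chr16:86566642-86566900, spans the lower end of FOXC2 and is also the hotspot at the end of the antisense gene FOXC2-AS1. U2OS had a hotspot of value 4.45 just below FOXF1 and one of value 2.74 just above FOXL1, and its strongest, of value 7.57, lay at chr16:86609056-86609508 beyond FOXL1. Each of the 3 genes was called for U2OS, with log2 ratios of 3.39 for FOXF1, 2.19 for FOXC2 and 2.28 for FOXL1. For FOXC2 the ratio turned to −0.38 in the gene plus 10 kb. FENDRR, the non-coding gene beside FOXF1, had no hotspot at its ends in either line.

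The other mesenchymal cluster, FOXQ1, FOXF2 and FOXC1 on chromosome 6, had 9 hotspots over 2349 bases in Saos-2 and 6 over 1672 in U2OS, and 4 of each were overlapped. FOXC1 (gene 2296), which is needed for skull and eye development, had a single hotspot in its window in each line, at the start. It measured 279 bp (−log10 7.93) in Saos-2, and 298 bp (6.92) in U2OS. These are the hotspots over the FOXC1 sequence printed above, and they differ little in width and position. FOXF2 had 972 covered bases in Saos-2 and 297 in U2OS, a log2 ratio of −1.43. A site 7.54 kb from its start was shared, with values of 5.80 and 4.74, and the remaining 3 of Saos-2 lay more than 40 kb before the start. These 3 also lie in the window of FOXQ1, which was not called, and are nearer to its start (34.6 to 36.7 kb). The FOXF2 call was lost in windows of 10 kb (−0.28) and 100 kb (−0.04). FOXQ1, with 1786 and 1077 covered bases, had its strongest site in U2OS alone, at chr6:1325552-1326032 with a value of 18.4.

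**Figure D4:**
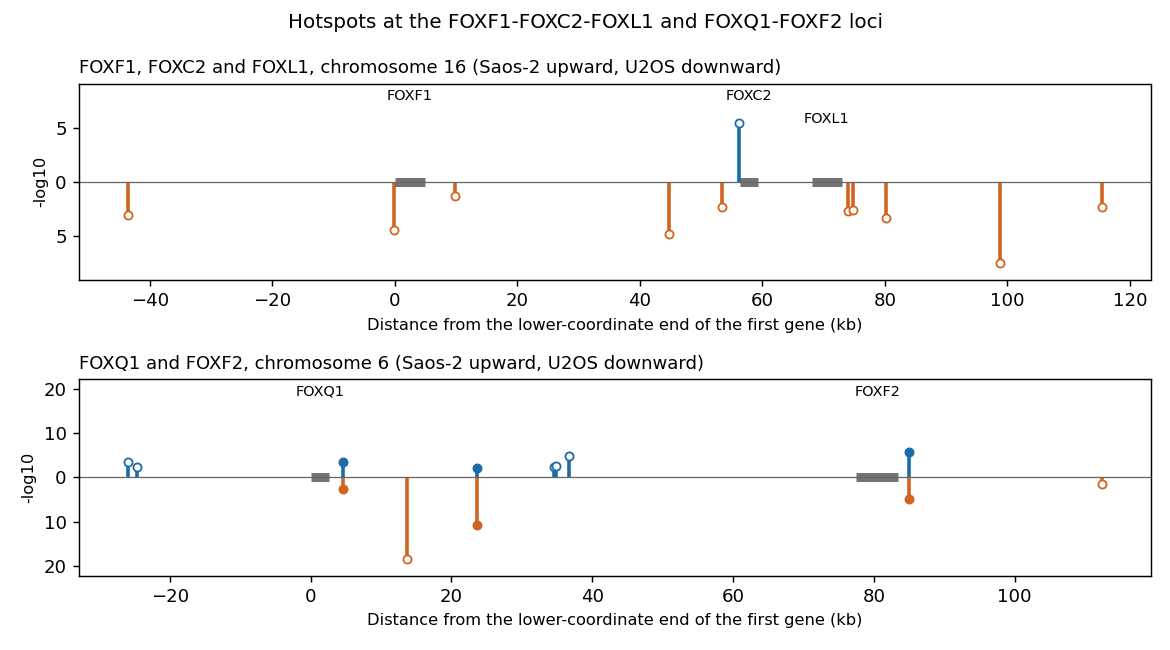
Hotspots of the FOXF1, FOXC2 and FOXL1 locus and of the FOXQ1 and FOXF2 locus, drawn by distance along the locus (x axis) with −log10 upward for Saos-2 and downward for U2OS (y axis), filled where overlapped by the other line and open where not. In the first locus Saos-2 has 1 stem and U2OS 10, all open, and in the second some stems of either line are filled.

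FOXD1 (gene 2297), a marker of kidney stroma, was open at its start in both lines, with values of 5.33 and 11.9 and with 1253 and 1862 covered bases. A site 36 kb from it had values of 2.10 in Saos-2 and 22.5 in U2OS. FOXD2 also had a start hotspot in both, of values 1.68 and 3.35, and its neighbour FOXE3, the lens factor, had 566 and 699 covered bases with none at its ends. FOXL2 (gene 668), the factor of ovarian granulosa cells, had a start hotspot of value 5.02 in Saos-2 only, which also lies at an end of the neighbouring gene FOXL2NB. FOXS1 had 4 hotspots in U2OS, all overlapped, and 5 in Saos-2, of which 4 were overlapped, with none at its ends.

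The FOXA1 and FOXA2 genes had gene-end hotspots at different places in the lines or in U2OS alone. FOXA1 (gene 3169) had a Saos-2 hotspot of value 6.66 inside the gene, 0.904 kb after the start, and a U2OS hotspot of value 4.32 that lay 0.951 kb before it, at an end of TTC6 as well. FOXA2 (gene 3170) had a shared site outside the gene, of values 7.88 and 5.43, and U2OS alone had a pair of hotspots inside the gene, of values 1.95 and 2.86. FOXA3 had 655 covered bases in Saos-2 and 1914 in U2OS. Its start region held a shared site 1.05 kb before the start in Saos-2, of values 4.31 and 20.6, which also lies at an end of SYMPK. Of its hotspots, 3 of 4 in Saos-2 and 6 of 7 in U2OS lay at ends of other coding genes, and the log2 ratio fell short of the rule without these (0.37). The call was also lost in windows of 10 kb (0.92) and 100 kb (0.71) and with lists of equal length (0.97).

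Several tissue-restricted members had no hotspot at the gene but strong ones far from it. For FOXB2 the single hotspot in each line was the same site 44.5 kb after the start in Saos-2, with values of 19.4 and 44.8. FOXE1, the thyroid factor, had sites 23.7 kb and 24.3 kb after the start, of values 10.8 and 13.5 in Saos-2, which a single U2OS hotspot of value 36.3 and 1031 bp overlapped. FOXI1, the factor of ion-transporting cells, had one 45.4 kb after the start (10.5 and 35.9), and FOXD3, of the neural crest, had one 45.1 kb after it (20.1 and 22.9) that lies at an end of the coding gene ALG6. Which gene such a distant site acts on was not tested. FOXB1 and FOXI2 each had a gene-end hotspot in U2OS only, of values 3.64 and 2.64, and both lay nearer to the 3′ end than to the start. FOXI3 had 549 bases in a pair of U2OS hotspots of values 9.46 and 7.99 and none in Saos-2, and FOXL3 had 324 bases in a pair 42.6 kb and 43.5 kb from its start.

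FOXH1 and FOXR1 lie among close neighbours. All 4 Saos-2 and all 10 U2OS hotspots of the FOXH1 window lay within 1 kb of ends of other coding genes, so its call for U2OS (888 and 1916 bases, log2 1.03) has no hotspot that is its own, and it was kept in only 2 of 8 alternatives, being lost with lists of equal length (0.35), in windows of 100 kb (0.93), with hotspots of at least 200 bp (0.58), with a pseudocount of 500 bp (0.80) and with −log10 values of at least 3 (0.21). In the FOXR1 window 5 of 7 Saos-2 and 5 of 6 U2OS hotspots lay at such ends. Over all forkhead windows this was so for 24 hotspots in Saos-2 (14.63%) and 38 in U2OS (19.79%). A background was counted only for ends of any coding gene, the forkhead genes' own ends among them. By that measure the share was 23.17% in Saos-2, against 25.59% over all gene windows. In U2OS it was 29.17% against 23.87%, so the lines differed from the background in opposite directions.

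The calls were set beside the surroundings of each gene, counted from 50 kb out to 1 Mb on either side. Of the 13 genes called for U2OS, 12 also had more covered bases in U2OS in these flanks, with log2 values from −0.16 at FOXN4 to 1.998 at FOXP1, as had 89.2% of all genes called for U2OS. FOXF1, FOXC2 and FOXL1 have nearly the same flanks (0.83, 0.92 and 0.96) and make up 3 of the 12. Of the 4 called for Saos-2, 3 had fewer in U2OS there, with values from −0.59 at FOXO3 to 0.35 at FOXO3B, against 59.6% of all genes called for Saos-2. Of the 25 genes not called, 15 had flank values above 0 (71% of all genes not called), and the median over all 42 was 0.48. The part of the surroundings in the calls was not tested. FOXO6 and FOXJ3 lie within 1 Mb of each other and their flank values (1.70 and 1.85) share hotspots. At FOXK1, FOXN3 and FOXP4 the flanks had values of 0.97, 0.39 and 0.50 whereas the windows had −0.01, −0.36 and −0.64. Chromosome 6 carries 5 forkhead genes, 4 of them with fewer covered bases in U2OS (background 33.5%). FOXQ1 and FOXF2 are 2 of these 4 and share Saos-2 hotspots, so they are not separate observations. The chromosome had a log2 ratio of −0.05 as a whole, against 0.33 over chromosomes 1 to 22.

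**Figure D5:**
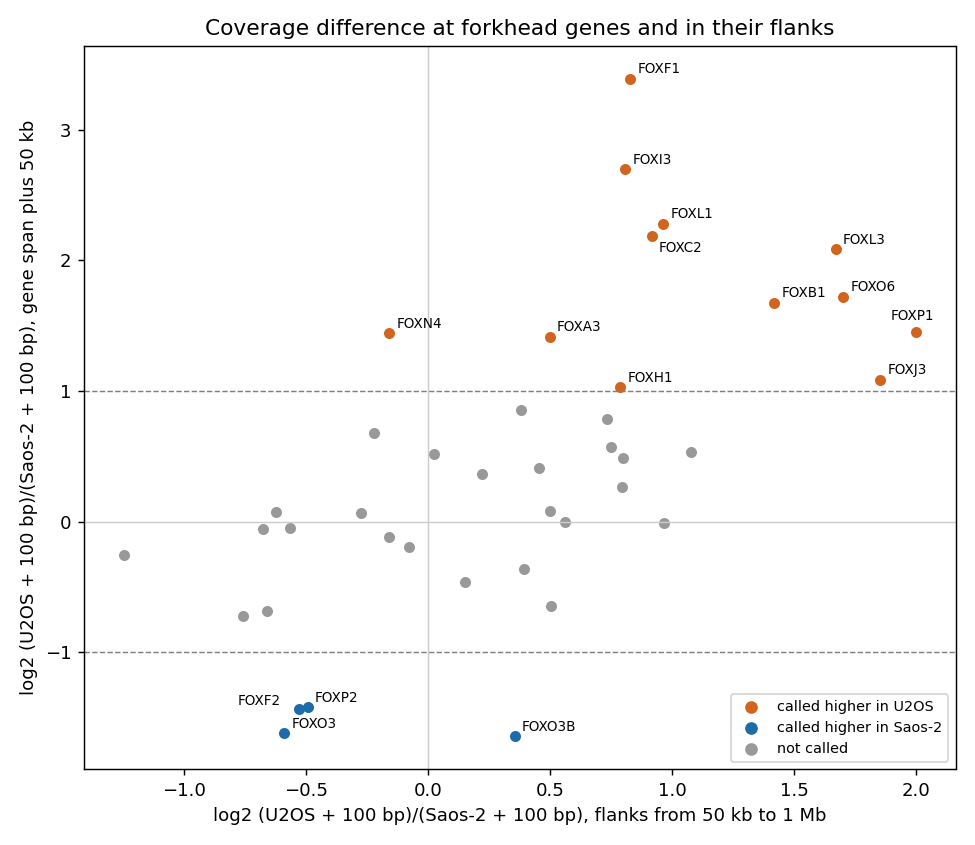
Log2 ratio of covered bases, U2OS over Saos-2 (each plus 100 bp), in the window of 41 of the 42 forkhead genes (y axis) against the same ratio in its flanks from 50 kb to 1 Mb (x axis), 1 point per gene, with called genes coloured. Of the 12 genes drawn as called for U2OS 11 lie right of 0, and of the 4 called for Saos-2 3 lie left of 0.

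The genes that signal to FOXO factors and those that FOXO factors are known to switch on were examined in the same way. Of 14 signalling genes, the ends of 8 held a hotspot in both lines (57.1%, background 43.5%), those of IRS2 and SGK1 in Saos-2 alone (14.3%, background 5.07%), those of 3, with INSR and IRS1 among them, in U2OS alone (21.4%, background 10.6%), and those of AKT1 in neither (7.14%, background 40.9%). The rule called 5 of the 14 for U2OS, with IRS2, PIK3R1 and YWHAB among them (35.7%, background 22.2%), and none for Saos-2 (background 6.03%). The median log2 ratio was 0.66 against 0.26 over all genes. PIK3R1, a regulatory subunit of the PI3 kinase, had 1581 covered bases in Saos-2 and 3671 in U2OS. Of 17 target genes, the ends of 9 held a hotspot in both lines (52.9%), those of CITED2 and KLF2 in Saos-2 alone (11.8%), those of BCL2L11, FBXO32 and PIK3IP1 in U2OS alone (17.6%), and those of 3 in neither (17.6%). The rule called 2 of the 17 for Saos-2 (11.8%) and 1 for U2OS (5.88%), and the median log2 ratio was −0.10. TXNIP, which limits glucose uptake, had 6532 covered bases in Saos-2 and 1968 in U2OS, and PCK1, a liver enzyme of glucose synthesis, had 1004 and 283. BCL2L11, which encodes a pro-death protein, was the sole target called for U2OS, with 1058 and 2716 bases.

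Of 13 listed non-coding genes, 12 are named for or lie near forkhead genes, and 2 of these had a gene-end hotspot. The share over all non-coding genes was not counted, so whether this is few or many is unknown. FOXN3-AS1 had 1 in Saos-2 and 2 in U2OS, the strongest of values 6.49 and 6.23, and FOXC2-AS1 had the one in Saos-2 described above. Among marker genes, a gene-end hotspot was present in both lines at 4 of 8 mesenchymal markers (VIM, FN1, SPARC and PDGFRB; 50%), at 0 of 6 epithelial markers and at 2 of 6 blood markers (CD3E and SPI1; 33.3%), against the 43.5% of all genes. COL1A1 and KRT8 had one in U2OS only. All 6 epithelial markers had more covered bases in U2OS (background 62.9%). Of these, CDH1 (log2 1.28), KRT8 (1.24) and KRT19 (1.61) were called for it (50%, background 22.2%). Of the mesenchymal markers, 4 had more covered bases in U2OS and 4 in Saos-2. The rule called 2 of them for U2OS (25%), with COL1A1 (2.77) among them. Of the blood markers, 4 had more in U2OS and 2 in Saos-2, and 1 was called for U2OS (16.7%). No marker was called for Saos-2. A hotspot at a gene's end is no measure of its expression, which was not analysed here.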

How the data were processed

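DNase-seq hotspots of Saos-2 and U2OS were analysed, with 1 library per line. Trimmomatic 0.38, BWA 0.7.15 and the build hg38 are listed in the submitters' processing notes, and the hotspot caller is not given in the sources used here. The authors' deposited file names state a false discovery rate of 0.05. The deposited lists have no header, and the value used is the −log10 of a p-value or q-value that the authors assigned to each hotspot, from 1.30 to a cap of 100. Depth is unknown, so no interval of a level was possible.

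Hotspots were joined in Python 3.11.15 (numpy 2.4.6, scipy 1.17.1) to gene spans and start windows from RefSeq tables on GRCh38.p14, which give no exons. Overlap was at least 1 bp. The joins were tested on simulated intervals. With 1 library per line no test was possible, and a 2-fold rule with a pseudocount of 100 bp replaced it. The genes and lists were chosen with earlier results of these data known. All 42 genes entered the counts. Values are given in full for called genes, genes with an end hotspot in 1 line only, the 5 most covered genes, the genes at the 3 strongest hotspots per line with and without overlap, FOXD4 as the gene with no hotspot, and 19 fixed genes; a few others were added after their values were seen. Some named items are not reported here, though they enter the counts. The planned search of hotspot sequences was not run, as no genome was used here. Alternatives changed the window, list length, width, merging, overlap, end distance, pseudocount and neighbours' ends.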

Additional observations from a re-analysis of the deposited data

How the results depend on the processing

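No paired analysis was possible because there was 1 library per line, and no replicate could be left out. Of 70 summary values recomputed under an alternative, 53 stayed within 1.5 times the count or within the interval and 17 moved. Within 10 kb of the genes there were 92 hotspots in Saos-2 and 99 in U2OS, covering 22516 and 25734 bases. There the rule called 8 of the 42 forkhead genes for U2OS, a share no higher than the 20.7% of all protein-coding genes. It called 5 of the 42 for Saos-2, where it called 8.45% of all protein-coding genes. Within 100 kb U2OS had 292 hotspots over 80640 bases. With hotspots of at least 200 bp only, 97 and 120 were left in the windows. With −log10 values of at least 3, a setting added after seeing the data, 97 and 122 were left. Cutting the U2OS list to the 51556 strongest hotspots left 149 in the forkhead windows in U2OS against 164 in Saos-2. The order of the lines by hotspot count thus turned, while covered bases stayed higher in U2OS (46920 against 43056). The overlapped share became 54.36% in U2OS and 50% in Saos-2, so the order of the shares turned as well. Requiring overlap of 50% of both hotspots gave shares of 42.07% in Saos-2 and 35.94% in U2OS. Start windows in place of gene ends were marked by hotspots at 9 genes in Saos-2 and 10 in U2OS, where fewer genes could be examined. A pseudocount of 500 bp left 7 of the 42 genes called for U2OS, where the rule called 11.1% of all protein-coding genes. Of the 17 called genes, 6 kept their call in all 8 alternatives of it: FOXF1, FOXI3, FOXL1, FOXO6, FOXP1 and FOXP2. FOXC2 (−0.38) and FOXJ3 (−0.34) changed direction within 10 kb, where hotspots farther away no longer count. Depth is unknown for either list, so that a hotspot missing from a list does not show closed chromatin.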
